A study of Mus musculus with 12 samples.

Results

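The respiratory chain of the inner mitochondrial membrane is built from subunits encoded by nuclear genes and a smaller set encoded by mitochondrial DNA. Complex I (NADH dehydrogenase) and complex II (succinate dehydrogenase) feed electrons to ubiquinone, complex III (cytochrome bc1) hands them to cytochrome c, complex IV (cytochrome c oxidase) reduces oxygen, and complex V (ATP synthase) uses the proton gradient to make ATP. In brain, this chain supplies most of the ATP that neurons spend on ion pumping and synaptic transmission, and nuclear subunit genes are known targets of the transcription factors NRF1, GABP (an ETS factor), YY1 and the oestrogen-related receptors.

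The genes described here are the nuclear subunit genes whose array name follows the mouse symbols Ndufa, Ndufb, Ndufc, Ndufs or Ndufv with a number, Sdha to Sdhd, Uqcr, Cox4 to Cox8 with a letter a to c, or Atp5 with a letter a to o. The rule found 79 of the 36161 genes named on the array. They were 36 of complex I, 4 of complex II, 8 of complex III, 16 of complex IV and 15 of complex V, read by 114 probes. Where a gene had several probes, the brightest was used. All but 1 of them, 78, lay well above background on 12 of 12 arrays. The exception was Cox8c, a complex IV isoform known from testis, whose single probe was well above background on 0 of 12 arrays and which was left out of all tests. The name rule does not reach Cox4i1, Ndufab1 or the subunits made from mitochondrial DNA, and Ndufa4, counted here under complex I by its name, is now regarded as a complex IV subunit.

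The study asked which genes of the hippocampus follow circadian time. Total RNA was taken from the hippocampus of 12 adult male wild-type mice kept in constant darkness, 3 mice at each of CT0, CT6, CT12 and CT18, where CT is circadian time in hours. The animals had been in darkness for 36, 42, 48 and 30 hours respectively, so hours in darkness and circadian time cannot be told apart across the 4 groups. Single-colour Agilent arrays were used, with a separate array for every animal. Strain and age in weeks are not given in the sources used here. Levels below are log2 signal relative to the 75th percentile of the same array (scaled log2 signal), so a difference of 1 is 2-fold. In whole tissue, fewer cells of a type and less RNA per cell cannot be told apart.

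Several libraries differed in tissue makeup. The library labelled CT12 mouse 11 was low for the 15 markers of hippocampal pyramidal and dentate neurons (median deviation from the gene means -3.87, against -0.14 to 0.55 in the other 11) and high for the 12 measured cerebellar markers (3.88, against -0.73 to -0.16). Pcp2, a Purkinje cell gene, was at 7.31 there and -2.08 to -1.21 elsewhere. Its correlation with the other libraries over 24120 genes was 0.945 to 0.965, and the lowest among the other 11 was 0.984. The median of the 11 measured choroid plexus markers (of 14 listed) was 3.65 (CT0 mouse 1), 2.55 (CT6 mouse 7), 3.29 (CT12 mouse 10), 1.87 (CT12 mouse 11) and 2.66 (CT18 mouse 14), and between -2.27 and -1.82 in the other 7. The median of the 8 measured thalamus and habenula markers was 1.07 for CT12 mouse 10, 0.74 for CT12 mouse 11 and between -0.44 and -0.03 in the other 10. Results are therefore given with and without CT12 mouse 11, and the marker values stand beside the genes that moved with them.

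Promoter sequences are shown first, since the factors named above are known to act there. RefSeq (GRCm38.p6) windows from 250 bases before to 50 after the start site were found for 67 of the 79 genes, 72 windows in all. Their median GC content was 57.3% and their median CpG ratio (observed over expected) 0.792, against 52.7% and 0.384 over all 32851 windows. The motifs searched, on both strands, were GCGCATGCG (core of the NRF1 site, which largely reads the same on both strands, so the strands overlap), CCGGAAG (ETS, the GABP site), AAGATGGCG (YY1), TCAAGGTCA (oestrogen-related receptor) and CACGTG (E-box, the site of CLOCK and BMAL1). The NRF1 core stood in 8 of the 72 windows (11.1%, against 1.75% of all windows), the ETS motif in 16 (22.2%, against 8.86%) and the YY1 motif in 7 (9.72%, against 1.4%). The receptor motif stood in 2 (2.78%, against 0.423%) and the E-box in 7 (9.72%, against 7.15%). A match describes letters in a window and is not evidence of binding.

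Sites with the NRF1 core are shown because they come from all of the complexes but complex II, each as 22 bases 5′ to 3′ on the strand that carries the motif, with the motif in capitals. They lay at chr15:102671076-102671097 (Atp5g2), chr5:115349107-115349128 (Cox6a1), chr17:56717694-56717715 (Ndufa11), chr2:36049331-36049352 (Ndufa8) and chr9:108936670-108936691 (Uqcrc1).
Atp5g2: ctccggccGCGCATGCGcagag
Cox6a1: ggaacgggGCGCATGCGcgctc
Ndufa11: tgcactgcGCGCATGCGcgcac
Ndufa8: taccatctGCGCATGCGtctcc
Uqcrc1: tccgctctGCGCATGCGcagcg

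The YY1 motif is shown for its position: in 6 of its 7 genes it began 23 to 36 bases after the start site, on the strand of the gene, and in the seventh, Atp5j, at base -88. The 5 complex I genes among them were Ndufa9 (chr6:126849102-126849123), Ndufc1 (chr3:51408920-51408941), Ndufs4 (chr13:114388046-114388067), Ndufs6 (chr13:73328436-73328457) and Ndufs7 (chr10:80249465-80249486).
Ndufa9: tgtgggagAAGATGGCGgccgc
Ndufc1: tgcggaacAAGATGGCGccgtc
Ndufs4: cctacaggAAGATGGCGgcggt
Ndufs6: tcaccggcAAGATGGCGgcggt
Ndufs7: ccgaggccAAGATGGCGgcgct

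Longer stretches, the 150 bases just before the start site, are printed for 3 genes expressed in all tissues and for Cox8b, a complex IV isoform known from heart, skeletal muscle and brown fat, whose level varied most. Capitals mark the ETS motif in Cox6a1 and Sdhd and the receptor motif in Atp5g3, each read on the opposite strand. The Cox8b stretch held none of the 5 motifs. The stretches lay at chr5:115348959-115349108 (Cox6a1), chr9:50603850-50603999 (Sdhd), chr2:73911327-73911476 (Atp5g3) and chr7:140900447-140900596 (Cox8b), all for genes on the minus strand.
Cox6a1: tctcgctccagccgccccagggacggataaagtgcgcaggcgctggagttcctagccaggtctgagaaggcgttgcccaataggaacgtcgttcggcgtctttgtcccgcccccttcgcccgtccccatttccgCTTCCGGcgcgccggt
Sdhd: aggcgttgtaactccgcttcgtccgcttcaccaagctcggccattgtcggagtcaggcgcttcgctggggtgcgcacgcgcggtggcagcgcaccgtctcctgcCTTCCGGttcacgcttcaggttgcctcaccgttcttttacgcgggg
Atp5g3: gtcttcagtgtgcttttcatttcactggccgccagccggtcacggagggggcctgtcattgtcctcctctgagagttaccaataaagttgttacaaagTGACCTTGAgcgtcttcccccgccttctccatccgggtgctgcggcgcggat
Cox8b: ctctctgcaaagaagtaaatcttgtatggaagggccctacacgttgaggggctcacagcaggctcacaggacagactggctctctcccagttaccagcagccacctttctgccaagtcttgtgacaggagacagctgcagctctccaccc

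No subunit gene was called by any test of circadian time. With limma's moderated F test over the 4 times, 0 of 78 passed an adjusted p of 0.05, against 0.178% of all 24120 genes. At an unadjusted p under 0.05 the count was again 0 of 78, against 10.6% of all genes. That unadjusted count was 1 with quantile normalization, in the deposited table and without CT12 mouse 12, and 2 without CT12 mouse 10. Without CT12 mouse 11, 0 of 78 passed at either level, against 0.245% adjusted and 12.3% unadjusted of all genes. A fitted 24-hour rhythm, tested with limma's F test, gave 0 of 78 at both levels, against 0.0705% and 9.73%. The unadjusted count for the rhythm was 1 or 2 under 5 alternatives and 4 without CT12 mouse 10. The smallest p of the F test over the 4 times among the subunit genes was 0.113 (adjusted 0.563), for Cox7a1 and Uqcrc1, and the adjusted p of the rhythm test was 0.514 or more in all 78.

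The 6 pairs of circadian times gave the same count. At an adjusted p of 0.05, 0 of 78 subunit genes were called in each pair. The shares of all genes were 0.0% for CT6 minus CT0, 0.0622% for CT12 minus CT0, 0.0% for CT18 minus CT0, 0.0207% for CT12 minus CT6, 0.133% for CT18 minus CT6 and 0.419% for CT18 minus CT12. At an unadjusted p under 0.05, 1 gene each passed in CT12 minus CT0 (Uqcrc1; all genes 11.7%), CT12 minus CT6 (Cox7a1; 11.8%) and CT18 minus CT12 (Cox7a1; 16.6%). None passed in CT6 minus CT0 (2.44%), CT18 minus CT0 (3.96%) or CT18 minus CT6 (8.3%). The smallest adjusted p of any pair was 0.295, for Cox7a1 in CT18 minus CT12.

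In scaled log2 signal with all 12 libraries, the differences of most of these genes were bounded closely. The intervals do not include the dependence on scaling, and they were not counted without CT12 mouse 11. The median CT12 minus CT0 difference was 0.13 in this fit and 0.34 with median centring (all genes 0.19). It was 0.05 with quantile normalization and without CT12 mouse 11. The 95% intervals of all 6 pairs lay within 1.5-fold for 70 of 78 subunit genes (89.7%, against 39.0% of all genes) and within 2-fold for 73 (93.6%, against 69.8%). By complex, 34 of 36, 3 of 4, 8 of 8, 10 of 15 and 15 of 15 genes of complexes I to V lay within 1.5-fold. The 5 genes outside 2-fold were all complex IV isoform genes, namely Cox6a2, Cox6b2, Cox7a1, Cox7b2 and Cox8b, and Ndufa3, Ndufs8 and Sdhb lay outside 1.5-fold only. The median SD within times was 0.14 for the subunit genes and 0.22 for all genes, and the median range over the 4 means was 0.14 and 0.30.

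**Figure D1:**
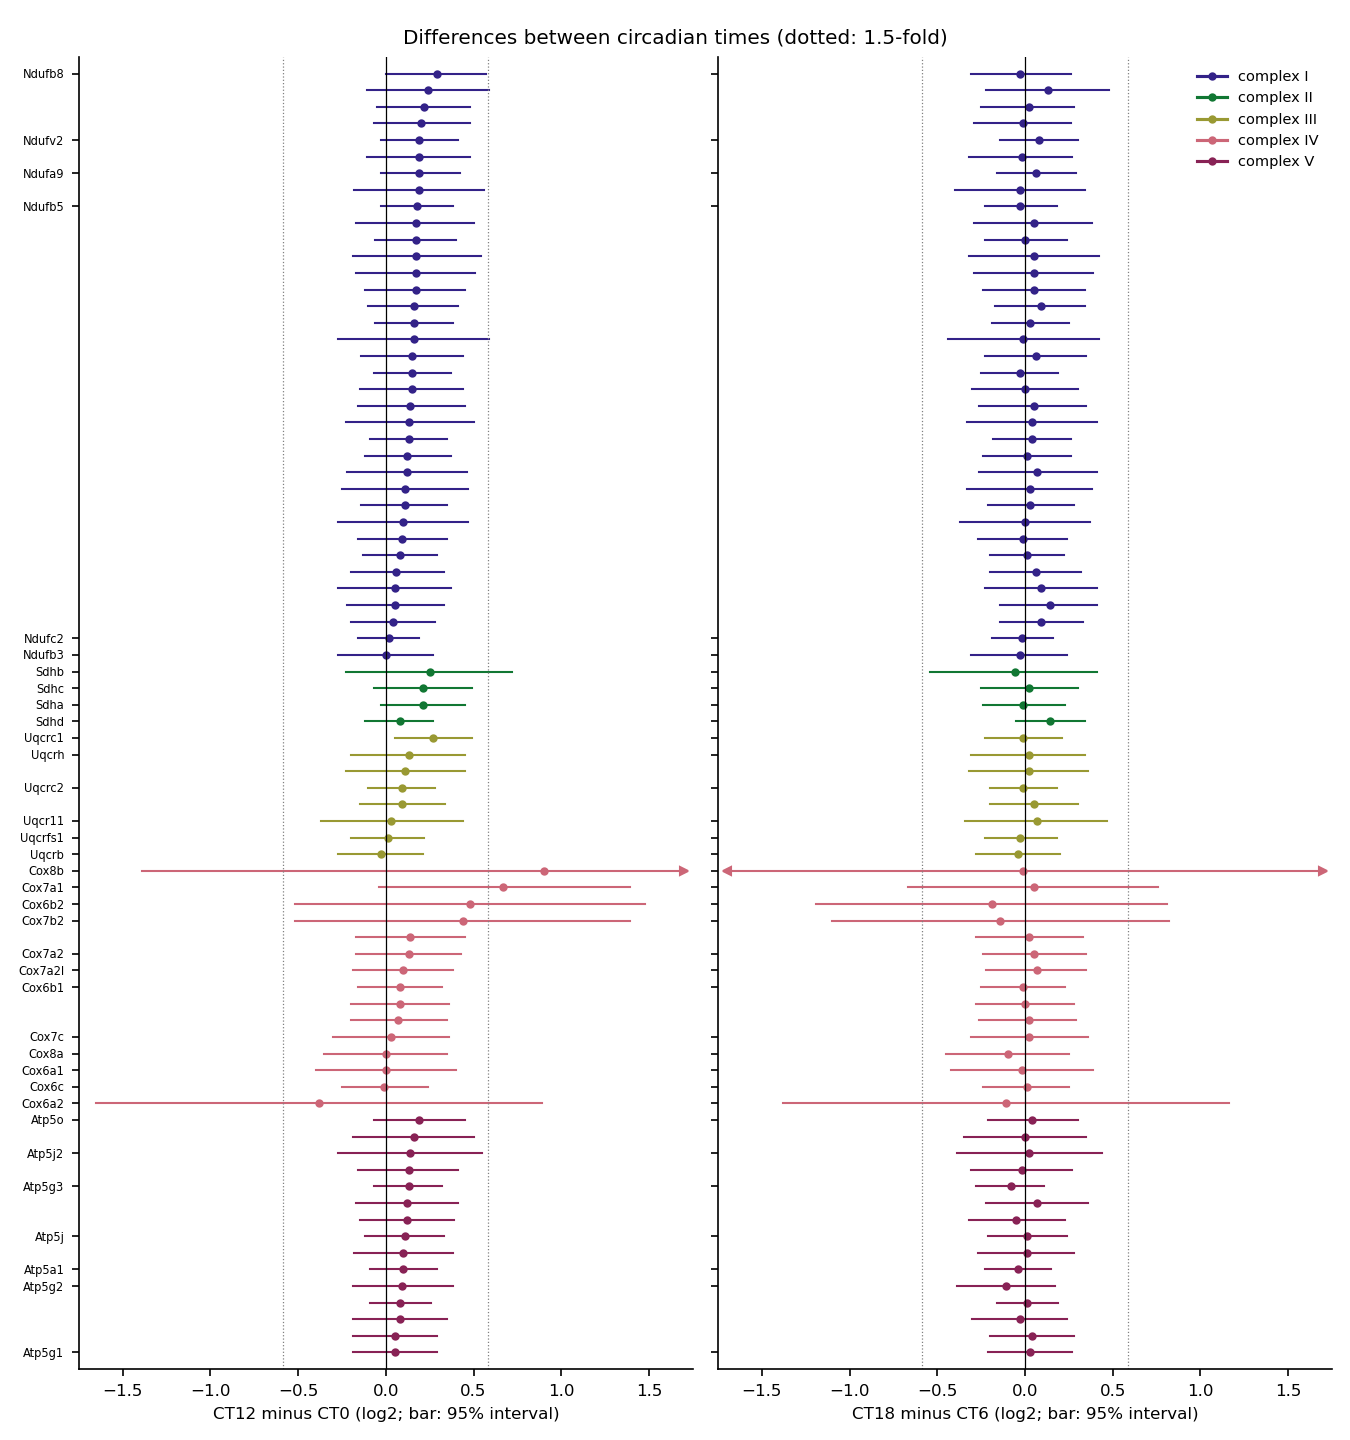
Difference between circadian times (x axis, log2) for the 78 measured subunit genes (y axis, grouped by complex, with names for those chosen by the naming rule), CT12 minus CT0 on the left and CT18 minus CT6 on the right. Points are limma estimates from 3 mice per time, bars 95% intervals (arrowheads: the bar runs past the axis, for Cox8b), and dotted lines mark 1.5-fold. Most bars cross 0 and stay between the dotted lines, and the 5 widest belong to complex IV isoform genes.

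Within complex I, 6 of the nuclear core subunits, a class that holds the flavin and iron-sulphur clusters that carry the electrons (Ndufs1, Ndufs3, Ndufs7, Ndufs8, Ndufv1 and Ndufv2), differed by 0.09 to 0.24 between CT12 and CT0, with limma F p-values of 0.279 to 0.67. The smallest p among them was that of Ndufv2, a flavoprotein subunit. Its levels were 4.88, 5.03 and 4.95 at CT0, 4.98, 5.03 and 5.0 at CT6, 4.96, 5.27 and 5.21 at CT12, and 4.99, 5.15 and 5.10 at CT18. CT12 mice 11 and 12 lay above every CT0 mouse, and CT12 mouse 10 lay inside the CT0 range, so the groups overlapped.

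The accessory subunit Ndufb8, often used as a marker of assembled complex I, had the smallest F p of the complex (0.184, adjusted 0.633). Its levels were 6.18, 6.30 and 6.17 at CT0, 6.27, 6.39 and 6.20 at CT6, 6.25, 6.55 and 6.69 at CT12, and 6.09, 6.38 and 6.31 at CT18. Mice 11 and 12 of CT12 were above every other library, and CT12 mouse 10 lay inside the range of CT0. CT12 minus CT0 was 0.29 ± 0.13 (SE; adjusted p = 0.428 in limma), and 0.26 without CT12 mouse 11 (0.697). The next accessory subunits were also highest on average at CT12 and lowest at CT0. Ndufb5 had means of 4.40 ± 0.07, 4.46 ± 0.05, 4.58 ± 0.14 and 4.43 ± 0.05 at CT0, CT6, CT12 and CT18 (SD, n = 3), and Ndufa9 had 4.03 ± 0.07, 4.10 ± 0.11, 4.22 ± 0.15 and 4.17 ± 0.05. The largest p-values of complex I were those of Ndufc2 (0.985) and Ndufb3 (0.974). Ndufc2, a membrane-arm subunit, had the narrowest range of all 78 genes, 0.14 over the 12 libraries, with a lowest level of 5.22 and a highest of 5.36.

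Complex II is the enzyme shared with the citric acid cycle, and its 4 subunits are all encoded by nuclear genes. Sdha, the flavoprotein that oxidises succinate, had levels of 4.44, 4.52 and 4.57 at CT0, 4.49, 4.59 and 4.57 at CT6, 4.54, 4.94 and 4.68 at CT12, and 4.49, 4.59 and 4.55 at CT18. Sdhc, a membrane anchor, had 3.71, 3.75 and 3.63 at CT0, 3.54, 3.77 and 3.66 at CT6, 3.72, 4.17 and 3.83 at CT12, and 3.57, 3.78 and 3.69 at CT18. In both, CT12 mouse 11 was the highest of 12 libraries, by 0.39 (Sdha) and 0.47 (Sdhc) above the mean of the other 11. CT12 minus CT0 was 0.21 ± 0.11 and 0.21 ± 0.12 (SE; adjusted p = 0.458 and 0.496 in limma), and 0.10 and 0.08 without that library. Hippocampal neuron markers were low and cerebellar markers high in that library, and their part in these values was not tested.

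Sdhb, the iron-sulphur subunit, was the most variable of complex II, with levels of 5.82, 6.08 and 5.98 at CT0, 5.92, 6.19 and 6.07 at CT6, 5.81, 6.10 and 6.72 at CT12, and 5.72, 6.16 and 6.11 at CT18. Here CT12 mouse 12 alone was high, and CT12 mouse 10 was among the lowest. Sdhd, the second membrane anchor, had levels of 4.62, 4.54 and 4.58 at CT0, 4.58, 4.57 and 4.53 at CT6, 4.50, 4.72 and 4.75 at CT12, and 4.64, 4.73 and 4.74 at CT18. It was the 1 gene of 78 in which every CT18 library lay above every CT6 library, against 11.2% of all genes. CT18 minus CT6 was 0.14 (95% interval -0.05 to 0.34; adjusted p = 0.813 in limma). In CT12 minus CT0, 0 of 78 genes had every CT12 library above every CT0 library, against 5.17% of all genes.

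**Figure D2:**
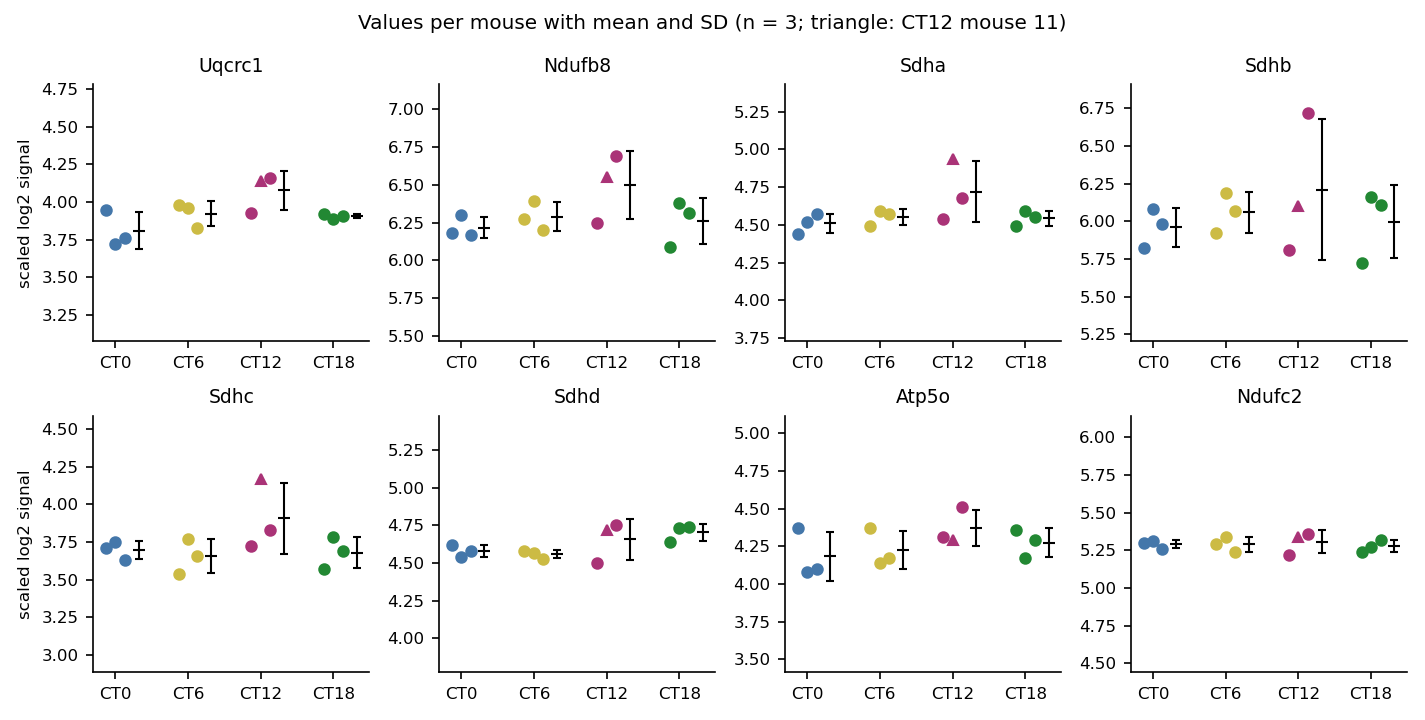
Scaled log2 signal (y axis, the same span in each panel) of 8 subunit genes at the 4 circadian times (x axis). Points are mice, the triangle is CT12 mouse 11, and the bar beside each group is the mean ± SD (n = 3). The CT12 mice spread widely in Sdhb (5.81 to 6.72) and Ndufb8 (6.25 to 6.69), and Ndufc2 stays within 5.22 to 5.36.

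In complex III, Uqcrc1, a core protein of the matrix side, had the smallest unadjusted p of all pair tests. Its levels were 3.95, 3.72 and 3.76 at CT0, 3.98, 3.96 and 3.83 at CT6, 3.93, 4.14 and 4.16 at CT12, and 3.92, 3.89 and 3.91 at CT18. CT0 mice 2 and 3 were the lowest and CT12 mice 11 and 12 the highest, while CT0 mouse 1 (3.95) lay above CT12 mouse 10 (3.93). CT12 minus CT0 was 0.27 ± 0.10 (SE; 95% interval 0.05 to 0.49; adjusted p = 0.396 in limma, 0.0211 unadjusted), and 0.24 without CT12 mouse 11 (adjusted p = 0.586 in limma, 0.0468 unadjusted). The second core protein, Uqcrc2, had means of 5.25 ± 0.06, 5.34 ± 0.06, 5.35 ± 0.07 and 5.33 ± 0.07 (SD, n = 3) at CT0, CT6, CT12 and CT18. The Rieske iron-sulphur protein Uqcrfs1 had 4.53 ± 0.01, 4.56 ± 0.03, 4.54 ± 0.16 and 4.54 ± 0.06, with an F p of 0.986. Uqcrh, the hinge protein, had 6.45 ± 0.09, 6.42 ± 0.12, 6.58 ± 0.27 and 6.43 ± 0.17. Uqcrb, the ubiquinone-binding protein, had a CT12 minus CT0 difference of -0.03 ± 0.11 (SE) by its brightest probe and 0.04 and 0.03 by its other probes, and Uqcr11 had 5.88 in CT12 mouse 11 against 5.91 to 6.63 elsewhere.

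Complex IV held the 5 least steady genes, and all 5 were tissue-restricted isoforms. The widely expressed forms varied less than these 5. Cox6a1 and Cox8a still ranged more widely over the 12 libraries than the median of the 78 genes (0.47, against 0.8 for all genes). Cox6a1 ranged from 8.23 (CT12 mouse 10) to 8.96 (CT12 mouse 12) with a median of 8.54, and its means at the 4 times were 8.53 ± 0.09, 8.58 ± 0.11, 8.54 ± 0.38 and 8.56 ± 0.21 (SD, n = 3). Cox6c and Cox7c, each of which is made from a single gene, had F p-values of 1.0 and 0.994. The range over 12 libraries was 0.34 for Cox6b1, 0.48 for Cox7a2, 0.50 for Cox7a2l (a factor that joins complexes III and IV into supercomplexes) and 0.63 for Cox8a.

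Cox8b had the widest range of all 78 genes, 3.91. Its level was 1.14 (CT0 mouse 1), 0.24 (CT12 mouse 10), 0.09 (CT12 mouse 11), -0.49 (CT18 mouse 14) and -0.53 (CT6 mouse 7), and between -2.77 and -1.52 in the other 7 libraries. The 5 high libraries were the 5 with high choroid plexus markers. Cox6b2, an isoform best known from testis, split the same way: 0.48, 0.30, 0.58, -0.21 and -0.21 in those libraries, in that order, and -1.12 to -0.74 in the other 7. The part of choroid plexus tissue in these levels was not tested. Each circadian time held at least 1 of the 5 libraries, and the F test of limma gave adjusted p-values of 0.849 for Cox8b and 0.738 for Cox6b2.

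The other 3 tissue-restricted isoforms departed in CT12 mouse 11. Cox6a2, the form known from heart and skeletal muscle, was -0.21 there and 1.19 to 2.40 in the other 11 libraries, 2.12 below their mean. Cox7a1, also a form of heart and muscle, was 2.48 there and 0.63 to 1.46 elsewhere. Cox7b2, a low-level isoform, was -2.32 there and -4.21 to -3.15 elsewhere. Hippocampal neuron markers were low and cerebellar markers high in the same library; the part of this in the 3 values was not tested. Cox7a1 differed by 0.77 ± 0.32 in CT12 minus CT6 (SE; adjusted p = 0.415 in limma, 0.0368 unadjusted) and by -0.73 ± 0.32 in CT18 minus CT12 (adjusted p = 0.295, 0.0474 unadjusted). Without CT12 mouse 11 the differences were 0.38 and -0.33, with unadjusted values of 0.138 and 0.189 in limma. For Cox6a2, CT12 minus CT0 was -0.38 with CT12 mouse 11 and 0.42 without it, with adjusted p-values of 0.808 and 0.794.

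**Figure D3:**
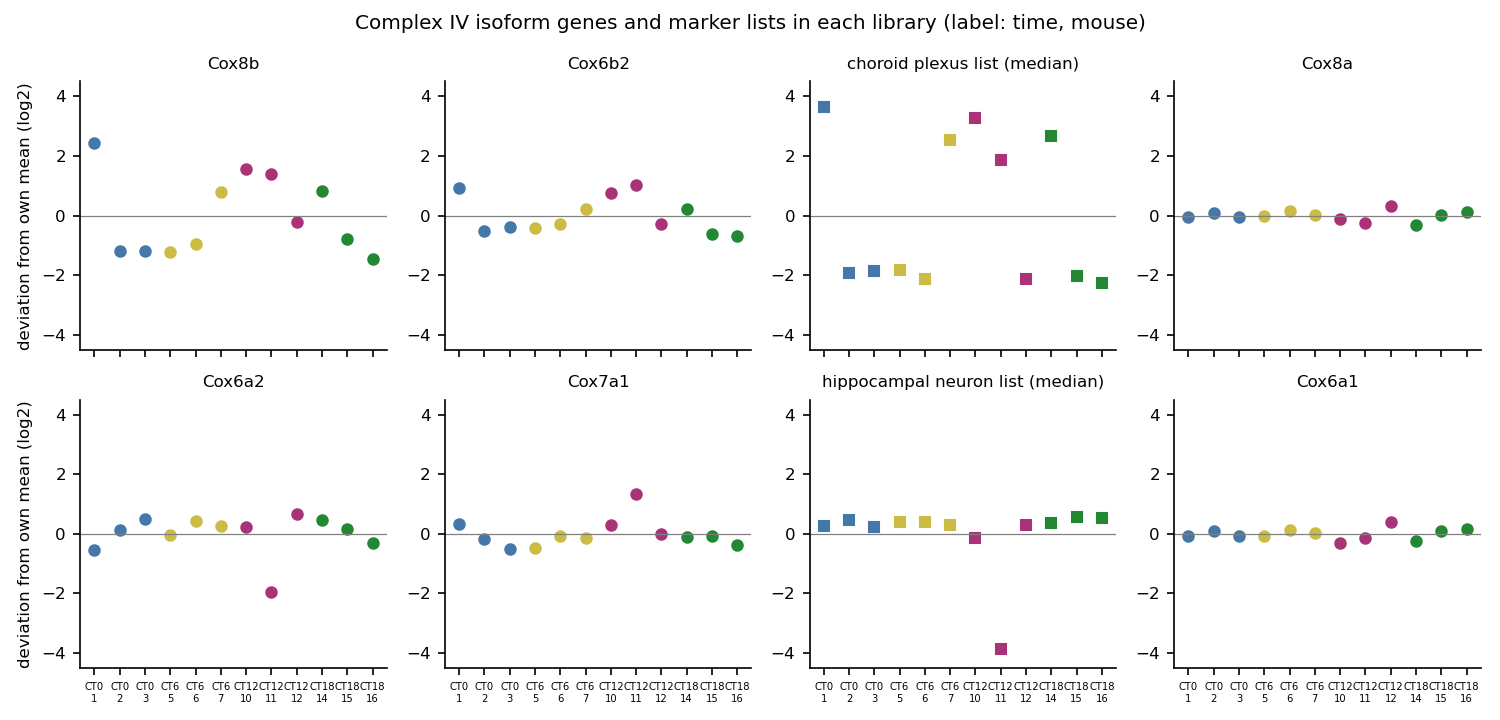
Deviation from the gene's own mean (y axis, log2) in each of the 12 libraries (x axis, circadian time and mouse number) for 6 complex IV genes (circles) and the median of 2 marker lists (squares), coloured by circadian time. Cox8b and Cox6b2 are high in the 5 libraries where the choroid plexus list is high, Cox6a2 is low and Cox7a1 high in CT12 mouse 11, and Cox8a and Cox6a1 stay nearer 0.

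The ATP synthase genes of complex V differed by 0.05 to 0.19 between CT12 and CT0 and by -0.11 to 0.07 between CT18 and CT6. Atp5o, the subunit of the stalk that confers sensitivity to oligomycin, had the largest CT12 minus CT0 difference, 0.19 ± 0.12 (SE; adjusted p = 0.508 in limma). Its levels were 4.37, 4.08 and 4.10 at CT0, 4.37, 4.14 and 4.17 at CT6, 4.31, 4.29 and 4.51 at CT12, and 4.36, 4.17 and 4.29 at CT18, so CT0 mouse 1 was above 2 of the 3 CT12 mice. Atp5a1, the catalytic-head alpha subunit, had means of 6.21 ± 0.02, 6.27 ± 0.06, 6.30 ± 0.11 and 6.22 ± 0.05 (SD, n = 3) at CT0, CT6, CT12 and CT18. Atp5j, a coupling subunit, had 4.88 ± 0.03, 4.86 ± 0.03, 4.99 ± 0.18 and 4.87 ± 0.08.

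The genes Atp5g1, Atp5g2 and Atp5g3 encode the same mature subunit c of the rotor ring. Their CT12 minus CT0 differences were 0.05 ± 0.11, 0.09 ± 0.13 and 0.13 ± 0.09 (SE), with F p-values of 0.907, 0.712 and 0.354 in limma. The 2 probes of Atp5g2 differed in sign, at -0.07 and 0.09. Among all 25 genes with several probes, the CT12 minus CT0 differences of a gene's probes spanned a median of 0.05, and the widest span was 0.20, for Ndufb11.

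No single gene passed, but the levels of these genes deviated in 1 direction within several libraries. The number of the 78 genes above their own 12-library mean was 9, 39 and 6 in CT0 mice 1, 2 and 3, 12, 63 and 13 in CT6 mice 5, 6 and 7, 7, 62 and 72 in CT12 mice 10, 11 and 12, and 9, 65 and 59 in CT18 mice 14, 15 and 16. For all genes the share above the mean was 42.1% to 56.1%. Of 18 citric acid cycle genes, 3 lay above theirs in CT0 mouse 1, 3 in CT12 mouse 10 and 2 in CT18 mouse 14. The count was 15 in CT6 mouse 6, 13 in CT12 mouse 11, 11 in CT12 mouse 12 and 15 in CT18 mouse 15. The median deviations of the subunit genes were -0.08, 0.00 and -0.08 at CT0, -0.07, 0.07 and -0.06 at CT6, -0.13, 0.09 and 0.24 at CT12, and -0.13, 0.09 and 0.05 at CT18. Within CT12 the genes were thus low in mouse 10 and high in mouse 12, so the mice of 1 circadian time spanned the whole range of these medians. CT12 mouse 12 held the highest level of 56 of the 78 genes (71.8%, against 13.7% of all genes), and CT12 mouse 10 the lowest of 26 (33.3%, against 8.64%).

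All 5 complexes had a median above 0 in CT6 mouse 6, CT12 mice 11 and 12 and CT18 mice 15 and 16. All 5 had a median below 0 in CT0 mice 1 and 3, CT6 mice 5 and 7, CT12 mouse 10 and CT18 mouse 14. The signs were mixed in CT0 mouse 2 alone of the 12. In CT12 mouse 12 the median deviations of complexes I to V were 0.27, 0.11, 0.23, 0.21 and 0.25, and in CT18 mouse 14 -0.14, -0.13, -0.07, -0.15 and -0.13. Complex II alone was higher in CT12 mouse 11 (0.22) than in CT12 mouse 12. Both the size of the shift and the library with the highest median depended on the scaling. In scaled log2 signal the median deviation of the subunit genes was highest in CT12 mouse 12 (0.24, against 0.09 in CT12 mouse 11). With quantile normalization it was highest in CT12 mouse 11 (0.21), the library with high cerebellar markers. It was then 0.05 for CT12 mouse 12 and between -0.07 and 0.04 in the other 10. The signs by complex are given for scaled log2 signal only. So are the counts of genes above their mean and of highest and lowest levels.

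**Figure D4:**
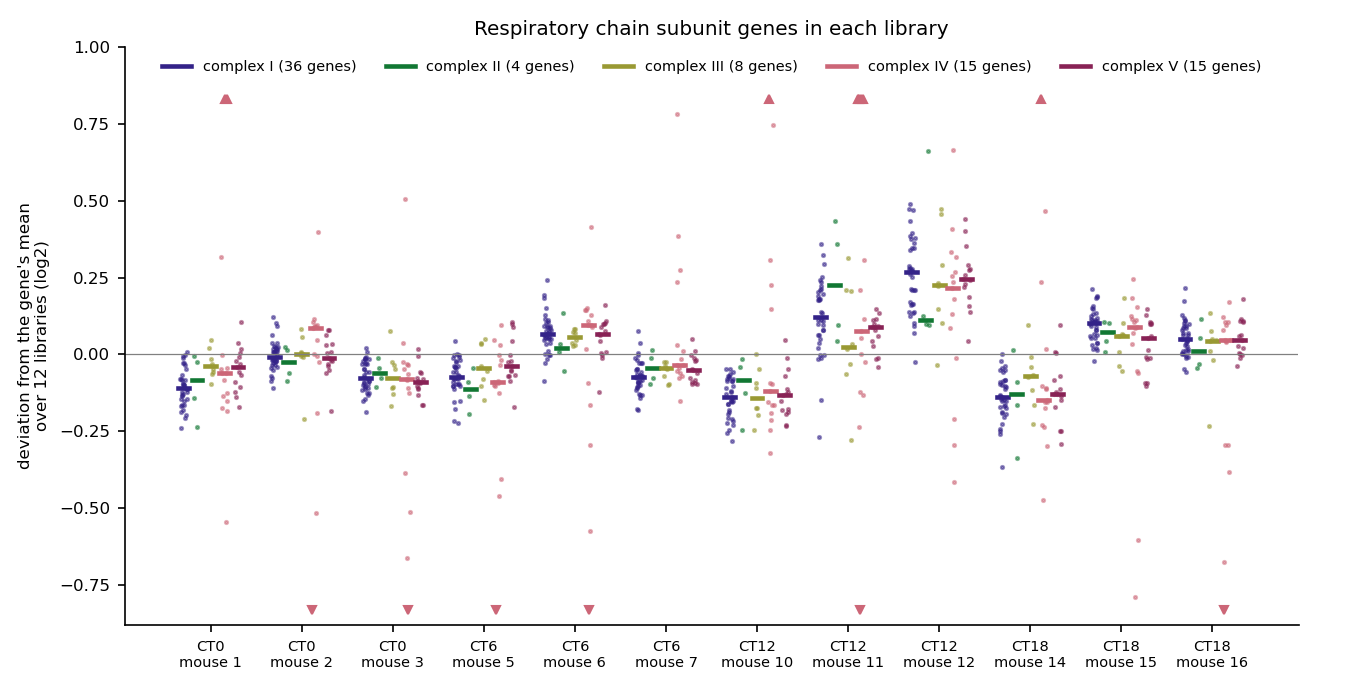
Deviation of each of the 78 subunit genes from its own mean over the 12 libraries (y axis, log2), by library (x axis) and complex (colour). Dots are genes, bars are medians, and triangles at the edges are genes beyond 0.8 in either direction. In scaled log2 signal, the medians of the 5 complexes lie on 1 side of 0 in 11 of the 12 libraries, and reach highest in CT12 mouse 12.

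Choroid plexus markers, slide and the share of spots well above background each went with part of this pattern. That share was 59.3% in CT12 mouse 12, 61.2% in CT18 mouse 16, 61.7% in CT18 mouse 15 and 62.2% in CT6 mouse 6. Libraries with 13 or fewer genes above the mean had 62.5% (CT0 mouse 1) to 77.1% (CT0 mouse 3). CT12 mouse 11, with 62 genes above the mean, had 63.6%, inside that range. Of the 5 libraries with high choroid plexus markers, 4 had few genes above the mean (9, 13, 7 and 9 of 78), and CT12 mouse 11 had 62. CT0 mouse 3 and CT6 mouse 5, with low choroid plexus markers, had 6 and 12. The arrays lay on 3 slides with 1 array of each circadian time, and every library of slide 1 (CT0 mouse 1, CT6 mouse 5, CT12 mouse 10 and CT18 mouse 14) had 12 or fewer of 78 genes above the mean. On slide 2 the counts were 39 (CT0 mouse 2), 63 (CT6 mouse 6), 62 (CT12 mouse 11) and 65 (CT18 mouse 15) of 78. Slide 3 held both low libraries (CT0 mouse 3 with 6 and CT6 mouse 7 with 13) and high ones (CT12 mouse 12 with 72 and CT18 mouse 16 with 59). Within slides 1, 2 and 3, the median of CT12 minus CT0 over the 78 genes was -0.06, 0.11 and 0.32, with 16, 59 and 76 genes above 0. The median of CT18 minus CT6 was -0.06, 0.00 and 0.10, with 13, 40 and 67 genes above 0. The sign thus differed between slides. The parts of slide, of choroid plexus tissue and of the share of spots well above background were not tested. With slide as a block, 0 of 78 genes passed the F test, and the smallest adjusted p was 0.352, for Sdhc. Array position on the slide and circadian time cannot be told apart, because each time had 1 position.

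Averaged over the 3 mice, 74 of 78 genes were higher at CT12 than at CT0 (94.9%, against 46.2% of all genes), with a median difference of 0.13 against -0.02 for all genes. Without CT12 mouse 11 the count was 72 (92.3%, against 47.9%), with a median of 0.11. Without CT12 mouse 10 it was 77, with a median of 0.24, and without CT12 mouse 12 it was 47, with a median of 0.03. Leaving out CT12 mouse 11 and blocking on slide gave 77, with a median of 0.15, and with quantile normalization and without CT12 mouse 11 it was 61, with a median of 0.05. Of 18 citric acid cycle genes, 15 were higher at CT12 than at CT0 (83.3%, median 0.10). So were 17 of 22 regulators of respiratory gene expression (77.3%, median 0.12). Without CT12 mouse 11 these counts were 11 (median 0.02) and 14 (median 0.05). Assembly factors had 14 of 27 above 0 (median 0.0), and further nuclear subunits and carriers 9 of 13 (median 0.04). Marker lists differed between the same times. All 10 oligodendrocyte markers were higher at CT12 than at CT0 (median 0.35, and 0.25 with 10 of 10 without CT12 mouse 11), as were 7 of 8 thalamus and habenula markers (median 0.77, and 0.64 with 8 of 8 without that library). Choroid plexus markers were higher in 11 of 11 (median 0.95, and 0.48 without it). Cerebellar markers were higher in 12 of 12 (median 1.83, and 0.30 with 9 of 12 without it). Blood markers were higher in 6 of 6 (median 0.46, and 0.05 with 4 of 6 without it). Interneuron (5 of 8), astrocyte (6 of 9) and brain endothelium markers (3 of 8) were mixed. Other lists were lower at CT12. Hippocampal neuron markers were above 0 in 0 of 15 (median -1.63), and in 2 of 15 without CT12 mouse 11 (median -0.27). Microglia markers were above 0 in 1 of 10 (median -0.29), and in 5 of 10 without it (median -0.03). The part of tissue makeup, as read by these marker lists, in the difference of the subunit genes was not tested. By complex, the median CT12 minus CT0 differences were 0.15, 0.21, 0.09, 0.08 and 0.11 for complexes I to V, and 0.12, 0.09, 0.11, 0.09 and 0.10 without CT12 mouse 11. Without CT12 mouse 12, complex III had -0.01.

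The mean was highest at CT12 in 61 of 78 genes (78.2%, against 31.3% of all genes), in 59 without CT12 mouse 11 and in 29 without CT12 mouse 12, where 30 were highest at CT18. For CT18 minus CT6, 47 of 78 genes were above 0 (60.3%, against 46.2% of all genes), with medians of 0.03 for complex I and 0.00 to 0.01 for the other 4. Leaving out 1 library at a time moved that count from 26 (without CT18 mouse 15) to 69 (without CT18 mouse 14). None of these counts is a test, since the 78 genes share the same 12 libraries.

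The 12 subunit genes of mitochondrial DNA read by the array had other values by library. Their median deviation was -0.18 in CT12 mouse 11 and -0.20 in CT18 mouse 15, the libraries where that of the nuclear genes was 0.09 in both, and 0.17 in CT12 mouse 12. Between CT12 and CT0, 1 of 12 was above 0, with a median of -0.09, and 5 of 12 without CT12 mouse 11 (median -0.03). COX1, the catalytic core of complex IV, had levels of 9.07, 8.10 and 8.78 at CT0, 9.09, 8.99 and 8.95 at CT6, 8.77, 8.66 and 7.57 at CT12, and 8.97, 8.45 and 8.76 at CT18. Its lowest library, CT12 mouse 12, was the one where the nuclear genes were highest at this scaling. The other 11 genes of mitochondrial DNA, however, were above their own means in that library. The F p of COX1 was 0.279 (adjusted 0.701 in limma). ND1, a complex I core subunit, had an F p of 0.332. The probes of 5 of the 12 carry chromosome 1 coordinates in the files.

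**Figure D5:**
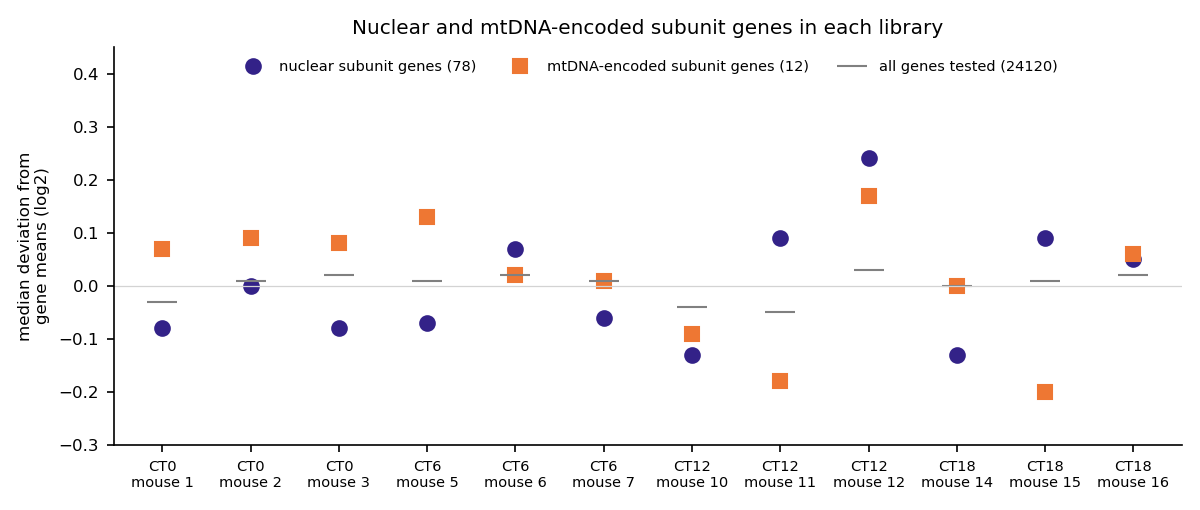
Median deviation from the gene means (y axis, log2) in each library (x axis) for the 78 nuclear subunit genes (circles), the 12 genes of mitochondrial DNA (squares) and all 24120 genes tested (dashes). Circles run from -0.13 to 0.24 and squares from -0.20 to 0.17, and the distance between them is widest in CT12 mouse 11 and CT18 mouse 15.

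Other genes of the pathway gave no calls either. At an adjusted p of 0.05, limma's F test, the rhythm test and the 6 pairs called 0 of 12 genes of mitochondrial DNA, 0 of 13 further nuclear subunits and carriers, 0 of 27 assembly factors, 0 of 22 regulators and 0 of 18 citric acid cycle genes, in either direction. At an unadjusted p under 0.05 the F test gave 0, 1, 0, 4 and 0 genes of these lists, against 10.6% of all genes (0.178% at the adjusted level). Cox4i1, the largest nuclear subunit of complex IV, had means of 7.56 ± 0.10, 7.61 ± 0.11, 7.70 ± 0.26 and 7.57 ± 0.13 (SD, n = 3) at CT0, CT6, CT12 and CT18. Cycs, the cytochrome c gene, had 4.98 ± 0.09, 4.98 ± 0.10, 5.0 ± 0.16 and 5.05 ± 0.15. Ndufa4l2, the hypoxia-linked relative of Ndufa4, had -0.39 ± 0.22, -0.32 ± 0.16, -0.38 ± 0.10 and -0.75 ± 0.12 (adjusted p = 0.427 in limma's F test, 0.0337 unadjusted). Atp5s, an ATP synthase factor, had an adjusted p of 0.604.

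The assembly factors with the smallest p were Tmem70 (complexes I and V) and Lyrm7 (complex III), at adjusted p-values of 0.50 and 0.504. Both had their highest mean at CT18, 2.80 ± 0.10 and -2.07 ± 0.24, against 2.51 ± 0.07 and -2.46 ± 0.02 at CT12 (SD, n = 3). Among the citric acid cycle genes, Pcx (pyruvate carboxylase) had an adjusted p of 0.624 and Idh2 (mitochondrial isocitrate dehydrogenase) 0.757.

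Among the regulators, Esrra, the oestrogen-related receptor alpha that drives many subunit genes, had the smallest p. Its levels were 3.42, 3.39 and 3.43 at CT0, 3.39, 3.26 and 3.36 at CT6, 3.57, 3.98 and 3.63 at CT12, and 3.58, 3.60 and 3.52 at CT18. Every CT12 library lay above every CT0 library (true of 5.17% of all genes), and every CT18 library above every CT6 library (11.2%). The adjusted p of Esrra in limma's F test was 0.395. CT12 minus CT0 was 0.32 ± 0.11 (SE; adjusted p = 0.391 in limma), and 0.19 without CT12 mouse 11. Ppara, a receptor for fatty acids, was highest at CT12, with -0.08 ± 0.10 against -0.35 ± 0.09 at CT0 (SD, n = 3; adjusted p = 0.422 in limma's F test, 0.0323 unadjusted). Ppargc1a, the coactivator that drives mitochondrial biogenesis, had 2.53 ± 0.22, 2.59 ± 0.13, 2.66 ± 0.23 and 2.51 ± 0.18 at the 4 times, and Nrf1 0.09 ± 0.03, 0.04 ± 0.05, 0.10 ± 0.15 and 0.04 ± 0.07. The 6 subunit genes with an E-box in the promoter window, Atp5f1, Atp5g1, Atp5g3, Atp5l, Ndufa7 and Ndufv1, had F p-values of 0.354 to 0.907. The smallest p of limma's F test over all 78 subunit genes was 0.113. Whether genes with and without an E-box differ was not tested.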

How the data were processed

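Hippocampal total RNA of every mouse was labelled with Cy3, per the labels, and measured on its own Agilent array. Scans were read with Agilent Feature Extraction 10.7.3.1, per the file headers, where the deposited processed signal is a background-subtracted intensity with no scaling between arrays, the local background is an intensity, and each spot's flags are 0 or 1. The coordinates of probes use mm9. The authors also deposited a table of log2 values (column medians 5.369 to 5.37), used as an alternative; how it was scaled is not given in the sources used here. Of 59305 non-control spots, the share well above background was 77.1% for CT0 mouse 3. On the other arrays it was 59.3% (CT12 mouse 12) to 67.1% (CT12 mouse 10). CT0 mouse 3 had 261 outlier spots, against 121 to 167 elsewhere. On every array 0 spots were saturated, and 3 mice per time limit the precision.

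For each array, the 75th percentile of log2 processed signal was subtracted. Outlier spots were dropped, spots of a probe averaged, and probes kept if well above background on all 3 arrays of a time (33966 of 55681; 24120 genes by brightest probe). limma 3.58.1 in R 4.3.3 fitted 4 means to 12 arrays; p-values were adjusted over all genes (Benjamini-Hochberg). The fits were tested on simulated data. Promoters came from RefSeq (GRCm38.p6); all 79 genes matched by accession, 1 of them under a newer symbol (Atp5f1, now Atp5pb). The labels number the mice and describe their handling no further, so p-values measure only the spread between these samples.

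Genes named were all of complex II, paralog sets, the 4 smallest and 2 largest F p-values of each other complex, genes failing the filter, and 2 genes of each pathway list plus Cox4i1, Cycs, Ppargc1a, Nrf1 and Esrra. Some single genes are not reported here. The genes and lists were chosen with earlier results of these data known. Core subunits, probe and library remarks were chosen after the values were seen. Alternatives were quantile normalization, median centring, normexp background (offset 50), the deposited table, other filters, the mean of all probes, slide as a block, eBayes with trend, and leaving out each library.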

Additional observations from a re-analysis of the deposited data

How the results depend on the processing

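Under 23 alternatives, the F test of limma, the 24 h rhythm test and the 6 pairs called 0 of the subunit genes at an adjusted p of 0.05, and the smallest adjusted F p was 0.208 (Cox7a1, without CT12 mouse 12). Median CT12 minus CT0 differences of complexes I to V moved to 0.36, 0.42, 0.31, 0.29 and 0.32 with median centring, which moved the median of all genes to 0.19. Within slide 1 they were -0.04, 0.00, -0.11, -0.05 and -0.07, within slide 2 0.13, 0.30, 0.03, 0.01 and 0.09, and within slide 3 0.32, 0.18, 0.33, 0.30 and 0.33. Complex II was 0.05 with quantile normalization and without CT12 mouse 11, a combination chosen after seeing the data. Leaving out 1 library at a time gave 0.04 to 0.27, 0.09 to 0.30, -0.01 to 0.16, 0.00 to 0.19 and 0.00 to 0.21, the lower ends without CT12 mouse 12, except in complex II, where it was without CT12 mouse 11. The median deviation of the subunit genes by library moved in CT12 mouse 11 (0.21 with quantile normalization, 0.23 with median centring, 0.22 in the deposited table), CT12 mouse 12 (0.05 with quantile normalization and in the deposited table), CT0 mouse 3 (-0.66 with median centring) and CT18 mouse 15 (0.29 with median centring). CT0 mouse 3 was also the array with 77.1% of spots well above background. The cause of these moves was not tested. No paired analysis was possible because each mouse number occurs in 1 circadian time only; arrays were matched by slide instead, as a block, with 0 genes called. All 49 named genes that were tested stayed on the same side of the threshold in the F test in each alternative that gave them a value.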

Other observations

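The files place the brightest probe of Atp5k on chromosome Y (1599617 to 1599676, mm9) and that of Cox5b on chromosome 15 (100805467 to 100805526), while RefSeq gives both promoters on other chromosomes, 5 and 1. The 3 probes of Atp5k gave CT12 minus CT0 differences of 0.07 to 0.12 and the 2 of Cox5b 0.08 and 0.09. The 79 genes lay on 20 chromosomes by their probe coordinates, with 8 on chromosome 7, the most of any.

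Feature Extraction marked the array of CT0 mouse 1 for evaluation and every other array as in range. CT0 mouse 1 had a local background of 100, against 25 to 37 on the other arrays. It held the lowest level of 7 and the highest of 1 of the 78 genes. The highest was Cox8b.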
